A study of Homo sapiens with 24 samples.

Results

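The genes described here are 42 genes of the lysosome and of autophagy, together with the transcription factors TFEB, TFE3 and MITF and the MITF target GPNMB. They were chosen by name: every row of the deposited table of 58735 genes whose symbol was on the list was taken. Each of the 42 symbols matched 1 row, and all 42 passed the filter on low counts that left 19210 genes for testing. Levels ran from a median of 0.815 FPKM (fragments scaled by gene length and library size) for GPNMB to 380 FPKM for PSAP over the libraries.

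The RNA came from OVCAR8, an established cell line from a human high grade serous ovarian tumour, kept in ultra-low attachment plates, where cells cannot spread on plastic. Each of 8 medium groups had 3 libraries, and the wells held conditioned medium and RPMI 1640 with 5% serum in equal parts (1 to 1). The groups were fresh medium, medium from vehicle-treated proliferating cells (proliferative medium), medium from cells made senescent with cisplatin (senescent medium), that senescent medium after boiling, its part below 3 kDa, its part above 3 kDa, and cells pre-treated with proliferative or with senescent medium. All 24 libraries thus share the line, the plates and the serum-containing base medium, but what came after the pre-treatment is not described. Nothing shows that the replicates were separate cultures, so p-values measure the spread between these samples, which may be technical. The study asked how the secretions of senescent cells, and their non-protein part in particular, change the cells that receive them.

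Lysosomes degrade macromolecules with acid hydrolases, in a lumen acidified by the vacuolar proton pump (V-ATPase), and autophagy delivers the cell's own cargo to them in vesicles coated by LC3 and GABARAP proteins. TFEB, TFE3 and MITF are related transcription factors that bind short E-box motifs in promoters of these genes. When amino acids are plentiful, Rag GTPases and the folliculin complex at the lysosome surface hold these factors in the cytoplasm through the kinase mTORC1, so their activity depends on phosphorylation and location, which RNA levels do not show.

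Promoter sequences are shown for 6 members because the factors of this family bind E-boxes, and because these members, chosen with their values known, range from a rise of several fold to no call. RefSeq promoter windows (GRCh38.p14, 250 bases before to 50 after the start) were found for 33 of the 42 members. The letters CACGTG, which read the same on both strands, occurred in 10 of the 33 windows (30.3%) and in 2030 of all 27305 windows (7.43%). The longer TCACGTGA, which contains CACGTG, was present in 5 members (15.2%) and in 1.04% of all windows, and TCATGTG, searched on both strands, in 6 members (18.2%) and in 2.99% of all windows. The list was made up of lysosome, autophagy and TFEB-MITF target genes. A larger share of these letters than in all windows is therefore not read as a result. Capitals in the stretches mark these letters (CACGTG, or CACATGA, the other strand of TCATGTG, in GPNMB), each stretch lies before the RefSeq start and reads 5′ to 3′ on the gene's strand. GPNMB (plus strand) had 2 matches, at chr7:23246642-23246668 and chr7:23246703-23246729, and GAA (plus strand) had 2, at chr17:80101495-80101520 and chr17:80101540-80101565. The stretches of GPNMB and CTSD and the second of GAA overlap an exon of at least 1 GENCODE transcript. NEU1 (minus strand, chr6:31862930-31862959) and CTSD (minus strand, chr11:1763957-1763986) had 1 match each. MCOLN1 (plus strand, chr19:7522571-7522623) had 2 matches and LAMP1 (plus strand, chr13:113297035-113297228) 5 within the stretch.
GPNMB, distal match: gagtcataagCACATGAgttgtaagag
GPNMB, proximal match: ttaataccatCACATGAtcctccccga
GAA, distal match: gaggccgcgtCACGTGacccaccgcg
GAA, proximal match: tcccgccggtCACGTGacccgcctct
NEU1: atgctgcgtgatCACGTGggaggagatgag
CTSD: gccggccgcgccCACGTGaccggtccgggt
MCOLN1: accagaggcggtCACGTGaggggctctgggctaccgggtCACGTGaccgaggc
LAMP1: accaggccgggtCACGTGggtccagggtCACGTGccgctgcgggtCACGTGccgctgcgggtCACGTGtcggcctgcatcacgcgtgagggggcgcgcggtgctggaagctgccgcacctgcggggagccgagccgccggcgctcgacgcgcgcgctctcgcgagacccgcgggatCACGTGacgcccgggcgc

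Total counts per library ran from 14718120 to 21956598. The line's markers PAX8, EPCAM, KRT7, KRT8 and KRT18 were present in all groups, whereas CDH1, MUC16 and WT1 stayed below 1 FPKM. Markers of other cell types were mixed. TYR, the pigment enzyme of melanocytes, was at or near 0 in every library, and PTPRC, CD163 and C1QA of macrophages were so in the 3 libraries of the part below 3 kDa. Of 6 fibroblast markers, COL1A1 was at 115 to 218 FPKM in every library, with group means of 213 in fresh medium, 119 in senescent medium, 192 in the part below 3 kDa and 172 in the part above 3 kDa. COL1A2, COL3A1, DCN and PDGFRA did not pass 0.161 FPKM in any library, and LUM ran from 0.313 to 1.8. The 4 endothelial markers summed to 0.283 to 0.422 FPKM in fresh medium and to 0.744 to 0.89 in the part below 3 kDa. The summed level of 8 macrophage markers was 3.9 to 4.33 FPKM in that group and 1.76 to 2.73 FPKM in fresh medium, carried by CD14 and CSF1R. The 5 melanocyte markers summed to 5.04 to 6.08 FPKM there and to 3.38 to 3.63 FPKM in fresh medium, nearly all of it PMEL, and the 8 epithelial markers to 288 to 298 against 368 to 385 FPKM. The part of these markers in the results below was not tested.

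Among the 8 media, the part of senescent medium below 3 kDa gave 19 of the 42 members their highest group mean, and fresh medium gave 11 and pre-treatment with senescent medium 13 their lowest. The highest group mean of a member was 1.14 to 11.4 times its lowest, with a median of 1.47. The ratio passed 1.5 for 19 members and 2 for only MAP1LC3C and GPNMB. Most members thus moved less than 2-fold between media, and the widest moves belonged to an autophagosome gene and a MITF target. These counts and ratios were not made for all genes, so they are not read as particular to the members. In bulk RNA, fewer cells that express a gene and less RNA of it per cell cannot be told apart.

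**Figure D1:**
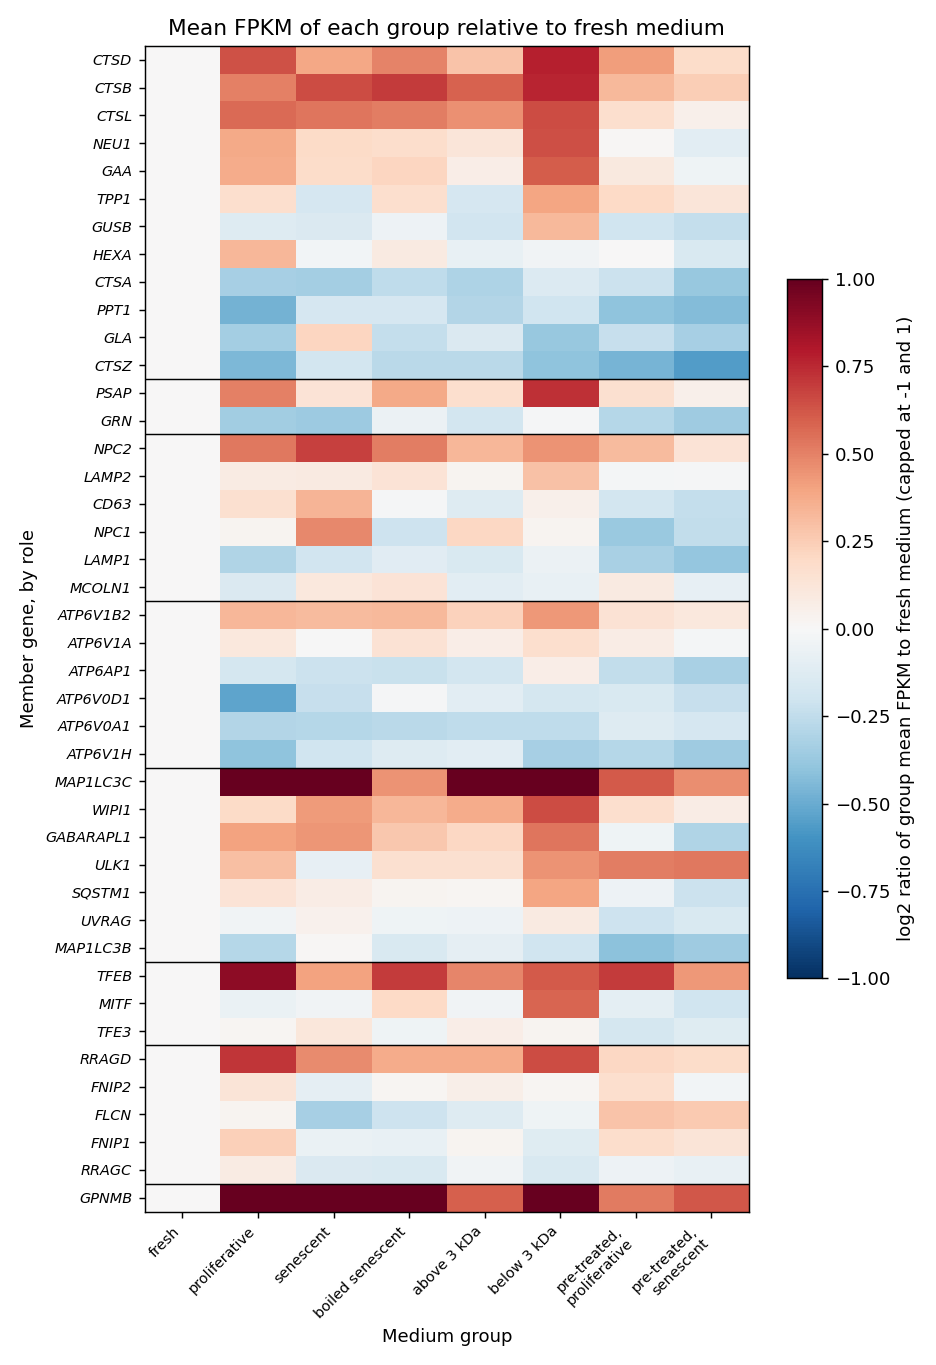
Mean FPKM of the 42 members in each of the 8 medium groups as the log2 ratio to fresh medium (colour scale, capped at -1 and 1); rows are ordered by role, with lines between roles, and columns are the groups of 3 libraries. The column of the part below 3 kDa is the reddest, MAP1LC3C and GPNMB exceed the scale in several media, and most proton pump rows stay pale.

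The part below 3 kDa was compared with fresh medium, with intact senescent medium and with the part above 3 kDa. The first sets the small molecules of senescent medium against medium that held no cells' products, the others against the unfiltered medium and the rest of it. No part below 3 kDa of fresh or proliferative medium was among the groups. Effects of filtration, of conditioning as such and of senescence therefore cannot be told apart in the first. Against fresh medium 21 of 42 members rose and 8 fell, where 22.1% of all genes tested rose and 22.5% fell. Against intact senescent medium 20 rose and 5 fell (all genes: 19.9% and 22.7%), and against the part above 3 kDa 21 rose and 2 fell (all genes: 16.8% and 18.3%). The share of members that rose was thus above that of all genes in each of the 3 comparisons. The same held for most other media against fresh medium. The shares were 42.9% (all genes: 20.6%) in proliferative, 33.3% (18.2%) in senescent and 40.5% (14.0%) in boiled medium. They were 31.0% (13.9%) in the part above 3 kDa, 21.4% (15.1%) after proliferative and 14.3% (14.6%) after senescent pre-treatment, the last not above all genes. The members were not matched to all genes in level. In the 3 comparisons of the part below 3 kDa the median log2 fold change of the members was 0.12, 0.12 and 0.17, against 0.01, 0.03 and 0.01 for all genes. The calls rest on edgeR's quasi-likelihood test over all 24 libraries with Benjamini-Hochberg adjustment at 0.05, and the comparisons share the libraries of the part below 3 kDa.

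The split depends on the scaling of the libraries. With library totals or upper quartiles in place of TMM factors, 24 members rose and 3 fell against senescent medium, and 25 rose against the part above 3 kDa, where the other 17 did not pass. All genes shifted the same way. With TMM factors 3822 genes rose and 4352 fell against senescent medium, and 3218 and 3512 against the part above 3 kDa. With library totals these were 5096 and 3256, and 4107 and 2689. With upper quartiles they were 5094 and 3251, and 4028 and 2730. With a correction for GC content and gene length, 19 members rose and 9 fell against senescent medium (3679 and 4688 of all genes). By the same correction 21 rose and 13 fell against fresh medium (4032 and 4791 of all genes).

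MAP1LC3C, a scarce LC3 protein that is coupled to the autophagosome membrane, had the largest change of the module. It stood at 19.4, 16.9 and 16.9 FPKM in the part below 3 kDa, at 1.7, 1.2 and 1.78 in fresh medium, at 2.98, 3.04 and 3.52 in senescent medium and at 3.42, 3.6 and 3.06 in the part above 3 kDa. No library of another medium exceeded the 5.01 FPKM of proliferative medium, so the groups did not overlap. The fitted rise was 11.21-fold over fresh medium (log2 3.49 ± 0.22 SE, adjusted p = 4.87e-17), 5.55-fold over senescent medium (2.47 ± 0.20, 1.44e-13) and 5.26-fold over the part above 3 kDa (2.39 ± 0.19, 1.91e-13). Intact senescent medium (log2 1.01), the part above 3 kDa (1.09) and proliferative medium (1.52) also raised it over fresh medium. Boiled medium (1.74, 2.43 and 2.21 FPKM) did not pass the test (0.43, adjusted p = 0.231). The gene had 19 to 384 reads per library.

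GPNMB, a membrane glycoprotein and textbook target of MITF, had the same shape with a different order of the other media. It stood at 4.05, 3.45 and 3.22 FPKM in the part below 3 kDa and at 0.435, 0.479 and 0.321 in fresh medium. Senescent medium gave 0.792, 0.844 and 0.876 FPKM and the part above 3 kDa 0.686, 0.498 and 0.688. All 3 libraries of the part below 3 kDa were above every other library of the series. The fitted rise was 8.68-fold over fresh medium (log2 3.12 ± 0.19, adjusted p = 1.06e-17), 4.25-fold over senescent medium (2.09 ± 0.17, 1.87e-13) and 5.71-fold over the part above 3 kDa (2.51 ± 0.17, 1.17e-15). Proliferative medium (1.77, 1.17 and 1.45 FPKM) and boiled medium (1.63, 1.34 and 1.31) came next, with ranges that overlapped, and both rose over fresh medium (1.83 and 1.79). Reads per library ran from 35 to 400.

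Among the 3 factors, MITF alone was higher in the part below 3 kDa in all 3 comparisons. It stood at 1.35, 1.23 and 1.76 FPKM there, and no library of another medium passed 1.15. Fresh medium gave 1.06, 0.949 and 0.894, senescent medium 0.842, 0.956 and 1.04, and the part above 3 kDa 0.807, 0.932 and 1.1. The groups did not overlap, and the log2 fold changes were 0.58 ± 0.15 (adjusted p = 0.00119), 0.61 ± 0.15 (0.000816) and 0.61 ± 0.15 (0.000788).

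TFEB was above fresh medium in every conditioned medium and after both pre-treatments. Fresh medium gave 1.26, 1.18 and 1.03 FPKM, and the lowest value in any other medium was 1.35. The part below 3 kDa (1.81, 1.95 and 1.55) overlapped senescent medium (1.74, 1.48 and 1.37) and the part above 3 kDa (1.35, 1.76 and 1.78), and neither difference passed the test (log2 0.21 ± 0.14, adjusted p = 0.238, and 0.12 ± 0.13, 0.542). The rise over fresh medium ran from 0.40 in senescent to 0.89 in proliferative medium, over 7 comparisons that share the fresh libraries. Proliferative medium (1.93, 2.16 and 2.39) had the highest mean, 2.16. Without replicate 3 of fresh medium, the rises in senescent medium (0.32, adjusted p = 0.137), in the part above 3 kDa (0.41, 0.0564) and after pre-treatment with senescent medium (0.35, 0.106) lost their calls. The first was also lost without replicate 1 of senescent medium (0.30, 0.169), with library totals (0.33, 0.07) and with the GC and length correction (0.31, 0.0744), and the last without replicate 3 of its own group (0.39, 0.069).

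TFE3 had the highest level of the 3 factors. It stood at 19.5, 19.5 and 18 FPKM in fresh medium, at 21.5, 18.2 and 18.6 in the part below 3 kDa, at 21, 21.2 and 19.4 in senescent medium and at 19.7, 18.8 and 21.2 in the part above 3 kDa. These groups overlapped, and no difference between them passed the test (log2 0.03, -0.08 and -0.04 for the part below 3 kDa), except that the GC and length correction called it lower than senescent medium (-0.13, 0.0372).

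**Figure D2:**
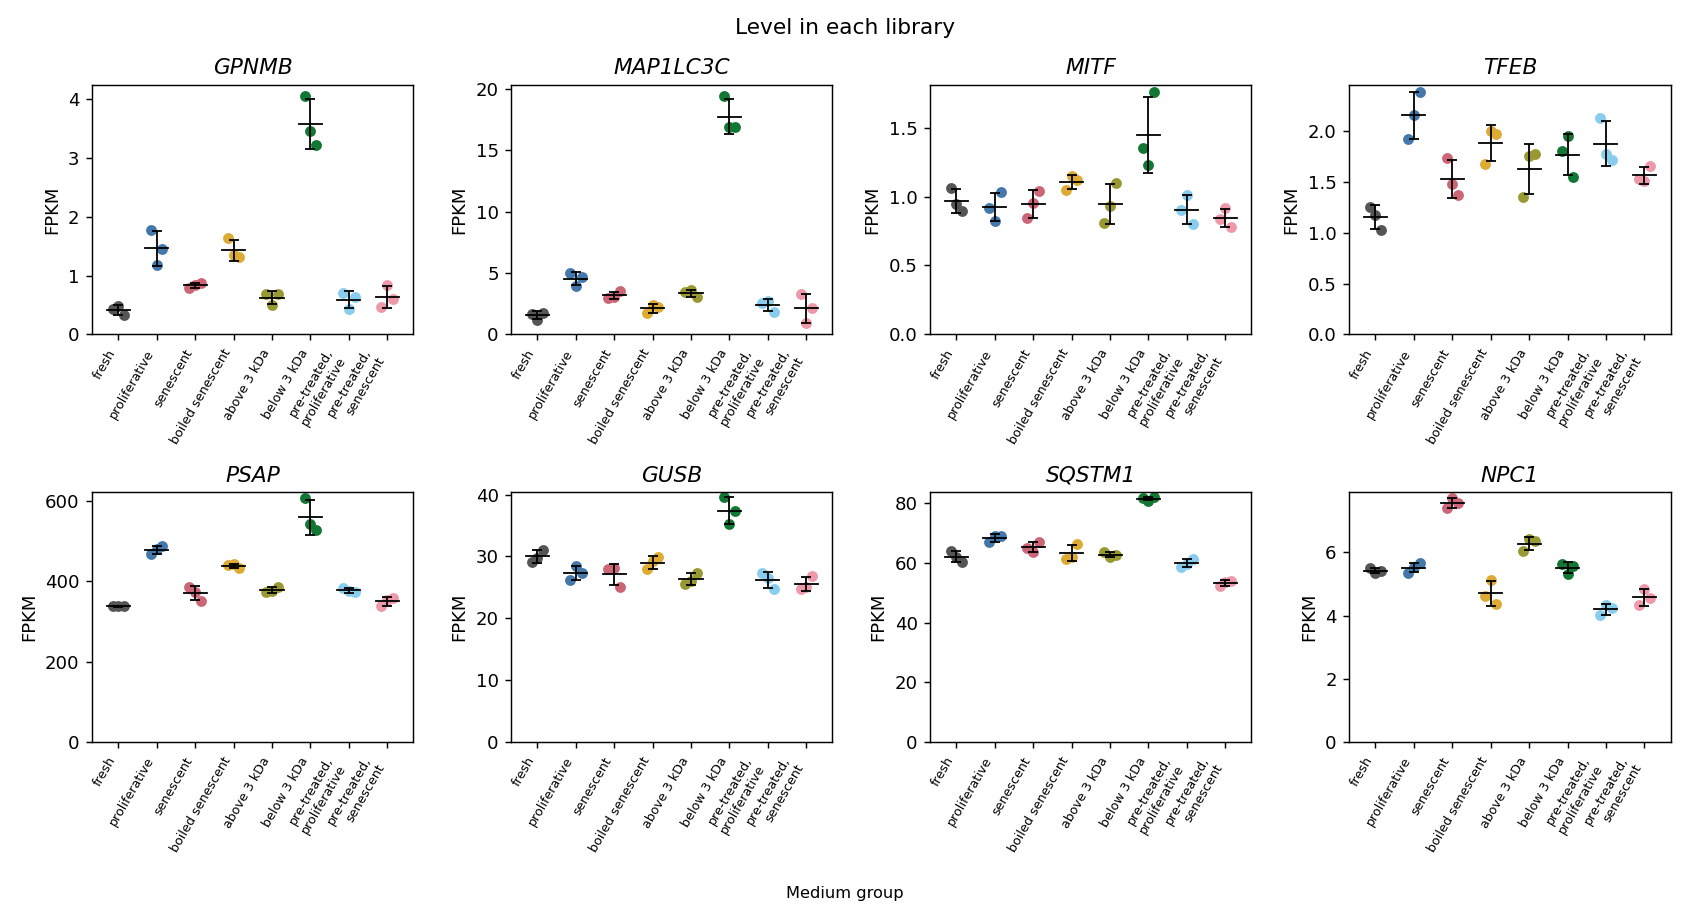
FPKM of GPNMB, MAP1LC3C, MITF, TFEB, PSAP, GUSB, SQSTM1 and NPC1 in each library, by medium group on the horizontal axis; dots are libraries, lines and bars the mean ± SD of 3. The libraries of the part below 3 kDa stand above all others for GPNMB, MAP1LC3C, MITF, PSAP, GUSB and SQSTM1, those of fresh medium are lowest for TFEB, and those of intact senescent medium are highest for NPC1.

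Of 12 acid hydrolases, 7 rose and 4 fell in the part below 3 kDa against fresh medium (all genes: 22.1% and 22.5%). Against senescent medium 7 rose and 2 fell (all genes: 19.9% and 22.7%). Against the part above 3 kDa 8 rose (all genes: 16.8% rose and 18.3% fell), and the other 4 did not pass. Of these 4, the GC and length correction called CTSZ lower (-0.23, adjusted p = 4.51e-07) and PPT1 higher (0.15, 0.00162). Library totals also called PPT1 higher (0.16, 0.0035), and limma on log2(FPKM + 0.1) called GLA lower (-0.23, 0.0482). The 2 cofactors were PSAP, the precursor of the saposins that help degrade sphingolipids, and GRN (progranulin). PSAP was at 607, 541 and 527 FPKM in the part below 3 kDa and at 337, 337 and 338 in fresh medium. Senescent medium gave 385, 374 and 351 and the part above 3 kDa 373, 375 and 386. All 3 libraries of the part below 3 kDa were above every other library, with log2 fold changes of 0.72 ± 0.04 (adjusted p = 3.14e-20), 0.59 ± 0.04 (2.39e-17) and 0.56 ± 0.04 (1.26e-16). GRN was lower in senescent than in fresh medium (-0.36) and stood at 266, 268 and 263 FPKM in the part below 3 kDa, above the 207, 208 and 209 of senescent medium (0.35, adjusted p = 4.5e-12) and beside the 271, 273 and 257 of fresh medium (-0.01, 0.807), below which it was called with the GC and length correction (-0.19, 0.00161).

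Several glycosidases and a peptidase also rose. GUSB (beta-glucuronidase) was at 39.6, 35.3 and 37.4 FPKM in the part below 3 kDa, at 29.1, 29.8 and 31.1 in fresh medium and at 28, 28.2 and 25.1 in senescent medium. Set against fresh medium, GUSB was lower in intact senescent medium (-0.15, adjusted p = 0.0274) and higher in the part below 3 kDa (0.32, 2.8e-06). TPP1, a tripeptidyl peptidase, fell by 0.16 in senescent medium (0.033) and rose by 0.40 in the part below 3 kDa (1.74e-07) against the same fresh libraries. Both falls in senescent medium lost their calls without replicate 2 or 3 of fresh medium, and also without replicate 3 (GUSB) or replicate 1 (TPP1) of senescent medium, at -0.15 to -0.10 for GUSB and -0.17 to -0.11 for TPP1, and the TPP1 fall also lost its call with the GC and length correction (-0.13, 0.0557). NEU1 (sialidase) rose by 0.64, 0.44 and 0.51 over fresh medium, senescent medium and the part above 3 kDa, and GAA (acid alpha-glucosidase) by 0.61, 0.43 and 0.54. Both have CACGTG in the promoter stretches above.

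The cathepsins, the main lysosomal proteases, split. CTSB was at 88.2, 84.1 and 82.5 FPKM in the part below 3 kDa and at 50.2, 51.2 and 49.3 in fresh medium (log2 0.75 ± 0.04, adjusted p = 2.22e-21). Senescent medium already held 80.6, 79 and 76.5, so that the step from it was 0.11 (0.0126), -0.01 with the GC and length correction, 0.09 (0.0766) without replicate 3 of senescent medium and 0.08 (0.0986) without replicate 1 of the part below 3 kDa. CTSD was at 39.1, 30.5 and 25.3 FPKM in the part below 3 kDa, a wide spread, and at 18.3, 18 and 18.9 in fresh medium (0.78 ± 0.15, 0.000465). Against senescent medium (26, 26 and 20) the CTSD groups overlapped (0.39, 0.0456), and the call was lost in 5 of 6 fits without 1 library (0.22 to 0.45, adjusted p = 0.0529 to 0.263), all but that without replicate 3 of the part below 3 kDa. In GENCODE 41.7% of the CTSD exon bases also belong to an annotated neighbour on the same strand, AC068580.4, and how such reads were counted is not given in the sources used here.

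CTSZ, a carboxypeptidase of the cathepsin family, went the other way. It was at 119, 111 and 100 FPKM in the part below 3 kDa and at 149, 144 and 141 in fresh medium (-0.40 ± 0.07, adjusted p = 3.36e-05). Against senescent medium (135, 135 and 112) the groups overlapped (-0.22, 0.0126), and the call was lost with library totals (-0.13, 0.109), without replicate 1 or 2 of senescent medium and without replicate 3 of the part below 3 kDa (-0.18 to -0.15, 0.0635 to 0.0819). GLA (alpha-galactosidase A) was at 5.3, 5.65 and 5.77 FPKM in the part below 3 kDa, at 7.13, 7.29 and 7.33 in fresh medium and at 8.09, 8.91 and 8.28 in senescent medium. It fell by 0.38 ± 0.10 on the log2 scale against fresh (0.00257) and by 0.60 ± 0.10 against senescent medium (7.53e-06), and stood at 6.3, 6.75 and 6.6 in the part above 3 kDa (-0.23, 0.079). PPT1 (palmitoyl-protein thioesterase, -0.20) and CTSA (protective protein of NEU1, -0.13) were also below fresh medium, CTSA not without replicate 2 or 3 of either group (-0.14 to -0.10), with library totals (-0.12, 0.0562) or with upper quartiles (-0.07, 0.246), CTSL rose over fresh medium (0.66), and HEXA did not pass in any of the 3 comparisons, although the GC and length correction called it lower than senescent medium (-0.18, 0.0462).

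Of 6 membrane and lipid transfer proteins, 2 rose against fresh medium, namely LAMP2 (0.29) and NPC2 (0.45), and the other 4 did not pass. Of all genes 22.1% rose and 22.5% fell in that comparison. NPC1 and NPC2, which export cholesterol from the lysosome in sequence, were both highest in intact senescent medium. NPC1 stood there at 7.4, 7.71 and 7.55 FPKM, in fresh medium at 5.5, 5.36 and 5.41, in the part below 3 kDa at 5.64, 5.31 and 5.57 and in the part above 3 kDa at 6.04, 6.42 and 6.36. In the part below 3 kDa the difference from fresh medium did not pass (0.02 ± 0.06, adjusted p = 0.83) and was lower than senescent medium (log2 -0.46 ± 0.06, 2.32e-08), without overlap. Against the part above 3 kDa NPC1 fell by 0.19 (0.0111), a call lost with library totals (-0.13, 0.0913) and without replicate 2 of the part below 3 kDa (-0.17, 0.0615). NPC2 was at 26.5, 24.8 and 23.5 FPKM in the part below 3 kDa, 18.7, 18.6 and 17.3 in fresh and 30, 29.8 and 28.1 in senescent medium (-0.24 ± 0.06 against senescent, 0.00144). CD63, LAMP1 and the calcium channel MCOLN1 did not pass against fresh medium. With the GC and length correction LAMP1 (-0.14, 0.00645) and MCOLN1 (-0.25, 0.024) were called lower there.

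The 6 proton pump members moved little and in both directions. ATP6V1B2 (0.43) and ATP6V1A (0.16), the A and B subunits that form the core of the cytosolic sector, rose over fresh medium, and ATP6V1H, ATP6V0A1 and ATP6V0D1 (-0.18, or -0.12 with upper quartiles, 0.0556) fell. Of all genes 22.1% rose and 22.5% fell in that comparison. ATP6V1H, which regulates the cytosolic sector, was at 7.63, 7.92 and 8.58 FPKM in the part below 3 kDa, at 10, 10.4 and 10 in fresh medium and at 9.35, 9.72 and 9.17 in the part above 3 kDa (-0.34 ± 0.07, adjusted p = 0.000134, and -0.23 ± 0.07, 0.0107). The second call was lost with library totals (-0.17, 0.069), with the GC and length correction (-0.15, 0.0516) and without replicate 1 of the part below 3 kDa (-0.19, 0.0579). ATP6V0A1, of the membrane sector, was at 5.05, 5.16 and 5.28 FPKM there and at 6.4, 5.91 and 6.11 in fresh medium (-0.25 ± 0.06, 0.000382), but at 4.94, 5.07 and 5.08 in senescent medium (0.04, 0.663). Against senescent medium 2 pump members rose, ATP6AP1 (0.28) and ATP6V1A (0.17), where 19.9% of all genes rose and 22.7% fell. ATP6V1A lost both calls without replicate 1 of the part below 3 kDa (0.13 and 0.13), and that against fresh medium also without replicate 3 of fresh medium (0.13).

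Of 7 autophagy members, 5 rose and 1 fell against fresh medium (all genes: 22.1% and 22.5%). Against senescent medium 3 rose and 1 fell (all genes: 19.9% and 22.7%). Against the part above 3 kDa 5 rose (all genes: 16.8% rose and 18.3% fell), and the other 2 did not pass. The GC and length correction called these 2, UVRAG higher (0.20, adjusted p = 0.0388) and MAP1LC3B lower (-0.13, 0.0298). SQSTM1 (p62), the receptor that brings ubiquitin-tagged cargo into autophagosomes, was at 81.8, 80.9 and 82 FPKM in the part below 3 kDa and at 64.1, 62 and 60.3 in fresh medium. Senescent medium gave 65, 63.7 and 67.2, and the part above 3 kDa 63.8, 62.1 and 62.6. All 3 libraries of the part below 3 kDa were above every other library, and the log2 fold changes were 0.39 ± 0.04 (adjusted p = 3.04e-12), 0.32 ± 0.04 (7.83e-10) and 0.37 ± 0.04 (1.3e-11). ULK1, the kinase that starts autophagy, rose by 0.44, 0.53 and 0.29, while WIPI1, which binds the growing membrane, rose over fresh medium (0.65) and the part above 3 kDa (0.28) but did not pass over senescent medium (0.23, 0.061), where it was called with library totals (0.32, 0.00879), upper quartiles (0.32, 0.0086), the GC and length correction (0.26, 0.0287) and limma on log2(FPKM + 0.1) (0.23, 0.0358). Against the part above 3 kDa, WIPI1 lost its call without replicate 1 or 2 of that medium or replicate 3 of the part below 3 kDa (0.23 to 0.26). GABARAPL1 rose over fresh medium (0.53) and the part above 3 kDa (0.32). MAP1LC3B, the common LC3 protein, fell by 0.20 against fresh and by 0.21 against senescent medium, whereas MAP1LC3C rose. The second MAP1LC3B call was lost with library totals (-0.12, 0.0555) and upper quartiles (-0.12, 0.058). MAP1LC3B has a near-identical copy, MAP1LC3B2, and GUSB and CTSL have pseudogene copies, so their counts could be split and are uncertain.

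Of the 5 genes of the nutrient switch, RRAGD rose in all 3 comparisons (0.65, 0.18 and 0.28), and the related RRAGC did not pass in any. FLCN (folliculin), which acts on both, rose over senescent medium (0.28, adjusted p = 0.000414), where it was at 5.03, 4.76 and 5.23 FPKM against 4.1, 4.21 and 4.02, and against fresh medium (5.37, 5.26 and 4.84) it did not pass (-0.04, 0.605). With the GC and length correction the rise was 0.11 (0.128) and FLCN was called lower than in fresh medium (-0.22, 0.00149). FNIP1 and FNIP2, its partners, did not pass.

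**Figure D3:**
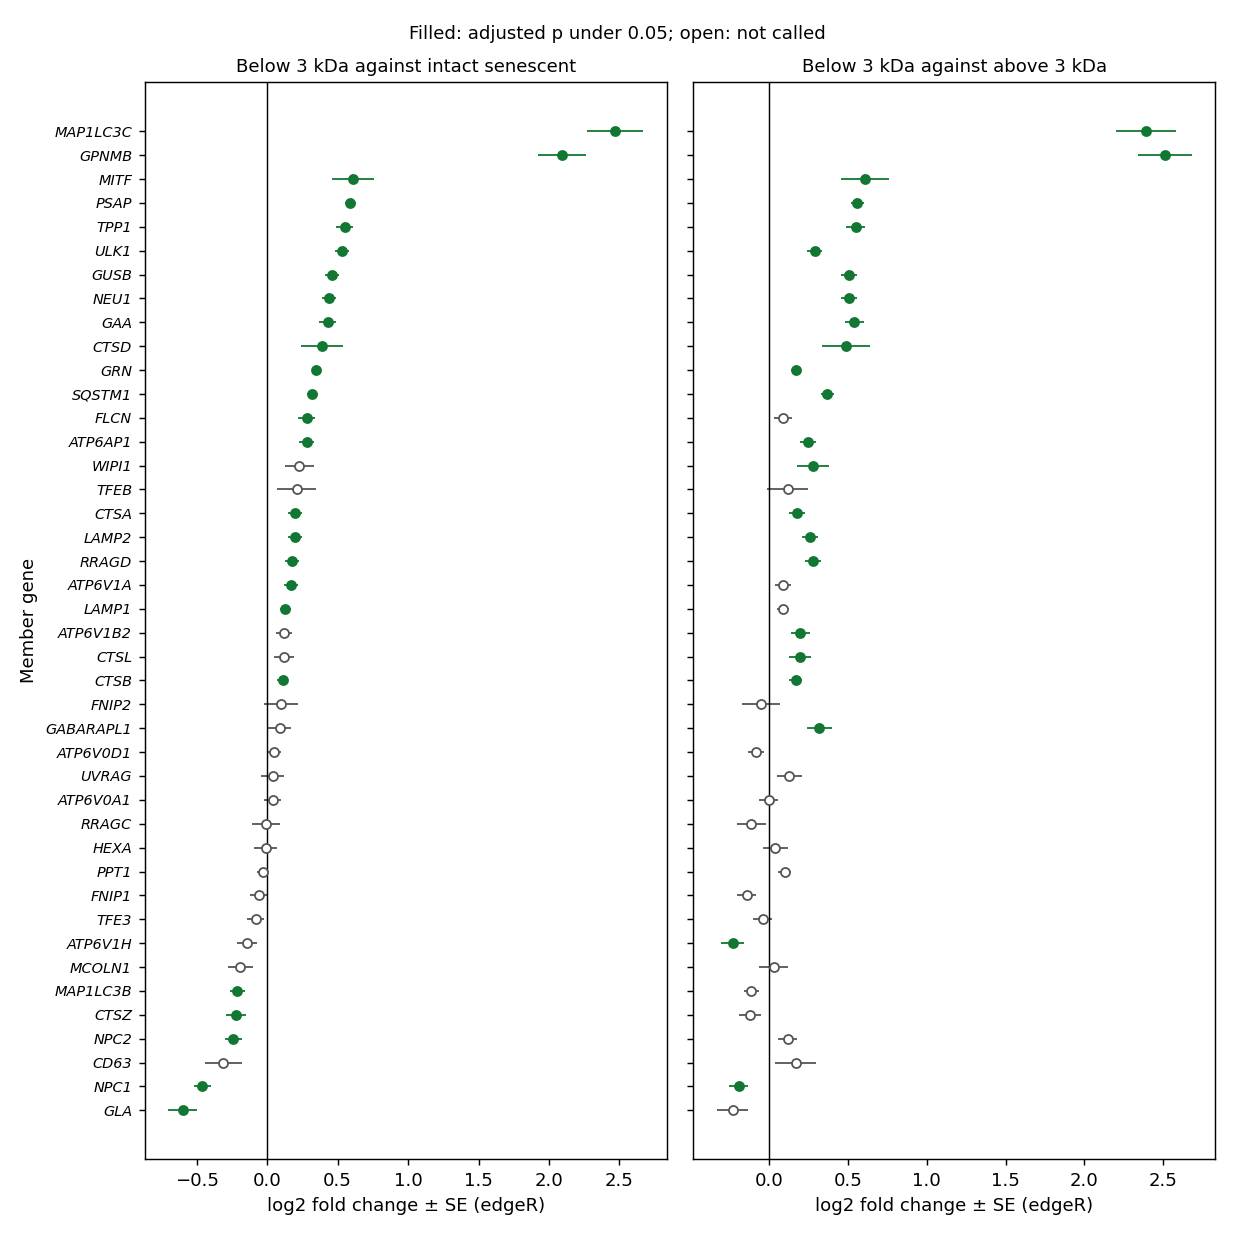
Log2 fold change ± SE of all 42 members (rows) in the part below 3 kDa against intact senescent medium (left) and against the part above 3 kDa (right), from edgeR; filled dots have an adjusted p under 0.05. MAP1LC3C and GPNMB lie beyond 2 in both panels, 20 and 21 members are called higher, and GLA and NPC1 are the lowest on the left.

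The part above 3 kDa and the boiled medium are the other preparations of senescent medium. Against intact senescent medium, 3 members rose and 6 fell in the part above 3 kDa. These shares of 7.1% and 14.3% were near those of all genes (8.14% and 10%), so the counts are not read as a result about the members. The risers were ULK1 (0.24 ± 0.05, adjusted p = 0.000542), FLCN (0.20 ± 0.07, 0.028) and GRN (0.17 ± 0.03, 9.91e-05). CD63, a tetraspanin of lysosomes and exosomes (-0.47 ± 0.13, 0.0155), GLA (-0.36 ± 0.10, 0.00903) and NPC2 (-0.35 ± 0.06, 2.9e-05) fell most, and NPC1 fell too (-0.27). FLCN lost its call in all 6 fits without 1 library (0.18 to 0.21, 0.0513 to 0.0831) and with the GC and length correction (0.13, 0.151), CD63 without replicate 1 or 2 of senescent medium or replicate 2 of the part above 3 kDa (-0.43 to -0.41, 0.0691 to 0.0734), and GLA without replicate 2 of senescent medium (-0.32, 0.0575). With library totals (1942 and 1623 of all genes) or upper quartiles (2001 and 1581) 4 members rose and 4 fell. With the GC and length correction 2 rose and 7 fell (1406 and 2180 of all genes).

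Boiled medium raised 7 and lowered 4 members against intact senescent medium (all genes: 11.2% and 14.7%). The counts were 10 and 2 with library totals (2838 and 2158 of all genes) or upper quartiles (2791 and 2194). GPNMB (0.76 ± 0.18, adjusted p = 0.00136), TPP1 (0.32 ± 0.06, 3.27e-05) and GRN (0.30 ± 0.03, 8.4e-10) rose most. NPC1 had the largest fall of any member here, to 4.62, 5.13 and 4.36 FPKM (-0.69 ± 0.06, 2.66e-12), followed by GLA (-0.46 ± 0.10, 0.000598) and NPC2 (-0.18 ± 0.06, 0.0265). The NPC2 call was lost without replicate 3 of boiled medium or replicate 1 or 2 of senescent medium (-0.16 to -0.13, 0.0881 to 0.158), with library totals (-0.12, 0.128), with upper quartiles (-0.13, 0.119) and with no filter (-0.17, 0.0569). NPC1 and GLA were called lower than in intact senescent medium in the boiled medium and in both size fractions, as was NPC2, apart from the fits named above, and these 3 comparisons share the senescent libraries.

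Against fresh medium, the part above 3 kDa raised 13 members and lowered 9 (all genes: 13.9% and 13%). With library totals it raised 11 and lowered 11 (2183 and 3292 of all genes). MAP1LC3C (1.09 ± 0.24, adjusted p = 0.000598), GPNMB (0.60 ± 0.22, 0.0343) and CTSB (0.59 ± 0.04, 1.36e-17) led the risers, and CTSA (-0.31 ± 0.05, 6.93e-06), PPT1 (-0.30 ± 0.04, 5.76e-07) and CTSZ (-0.28 ± 0.07, 0.00306) the fallers. GPNMB lost its call without replicate 1 or 3 of fresh medium or of the part above 3 kDa (0.45 to 0.65, 0.0596 to 0.195) and with limma on log2(FPKM + 0.1) (0.50, 0.0753). Boiled medium raised 17 and lowered 9 (all genes: 14.0% and 13.9%). GPNMB (1.79 ± 0.20, 1.35e-09), TFEB (0.70 ± 0.14, 0.000114) and CTSB (0.69 ± 0.04, 1.07e-19) led the risers there, and CTSZ (-0.27 ± 0.07, 0.00342), ATP6V0A1 (-0.27 ± 0.06, 0.000267) and CTSA (-0.26 ± 0.05, 0.000135) the fallers.

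Conditioned medium of both kinds moved most members against fresh medium. Proliferative medium raised 18 and lowered 12 (all genes: 20.6% and 21.5%). GPNMB (1.83 ± 0.20, adjusted p = 4.53e-10), MAP1LC3C (1.52 ± 0.24, 1.4e-06) and TFEB (0.89 ± 0.14, 1.04e-06) rose most, and RRAGD rose by 0.72. ATP6V0D1 (-0.53 ± 0.05, 1.33e-11), PPT1 (-0.48 ± 0.04, 3.56e-12) and CTSZ (-0.45 ± 0.07, 7.11e-06) fell most. SQSTM1 was at 67, 69.1 and 69.2 FPKM (0.14, 0.00216), a difference that turned to -0.03 with the GC and length correction. Senescent medium raised 14 and lowered 12 (all genes: 18.2% and 15.5%), or 11 and 13 with library totals (2576 and 4079 of all genes). GPNMB (1.03 ± 0.21, 0.000194), MAP1LC3C (1.01 ± 0.25, 0.00151) and NPC2 (0.69 ± 0.06, 4.72e-12) rose most there, and GRN (-0.36 ± 0.03, 4.17e-12), CTSA (-0.34 ± 0.05, 1.79e-06) and FLCN (-0.33 ± 0.07, 0.0001) fell most. In both media 4 of the 6 proton pump members fell and ATP6V1B2 rose (0.32 and 0.31).

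Set directly against proliferative medium, senescent medium raised 11 members and lowered 11 (all genes: 16.6% and 12.4%). The higher members were led by GLA (0.56 ± 0.10, adjusted p = 4.35e-05), NPC1 (0.46 ± 0.06, 7.09e-08) and PPT1 (0.31 ± 0.04, 3.67e-07), and included 4 of the 6 membrane and lipid transfer proteins (NPC1, NPC2, LAMP1 and MCOLN1). NPC1 kept its call without any 1 library, whereas NPC2 (0.14 to 0.16, in 4 of 6 such fits), LAMP1 (0.06 to 0.11, in 3, without replicate 2 or 3 of proliferative or replicate 3 of senescent medium) and MCOLN1 (0.23 to 0.27, in 5, all but that without replicate 3 of proliferative medium) lost theirs, NPC2 without replicate 1 or 2 of either group. All 3 also lost their calls with library totals (0.09, 0.04 and 0.18) and upper quartiles (0.11, 0.05 and 0.20). GPNMB (-0.80 ± 0.18, 0.000658), TFEB (-0.49 ± 0.14, 0.00489) and ULK1 (-0.38 ± 0.05, 9.06e-08) were lowest, and 3 of 5 genes of the nutrient switch, FLCN (-0.35), FNIP1 (-0.30) and RRAGD (-0.24), were lower. The even split depends on the scaling: library totals gave 6 higher and 16 lower (2198 and 3558 of all genes), and upper quartiles 7 and 15 (2389 and 3290). A minimum mean of 1 FPKM in a group gave 9 and 14 (2808 and 2477 of all genes).

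**Figure D4:**
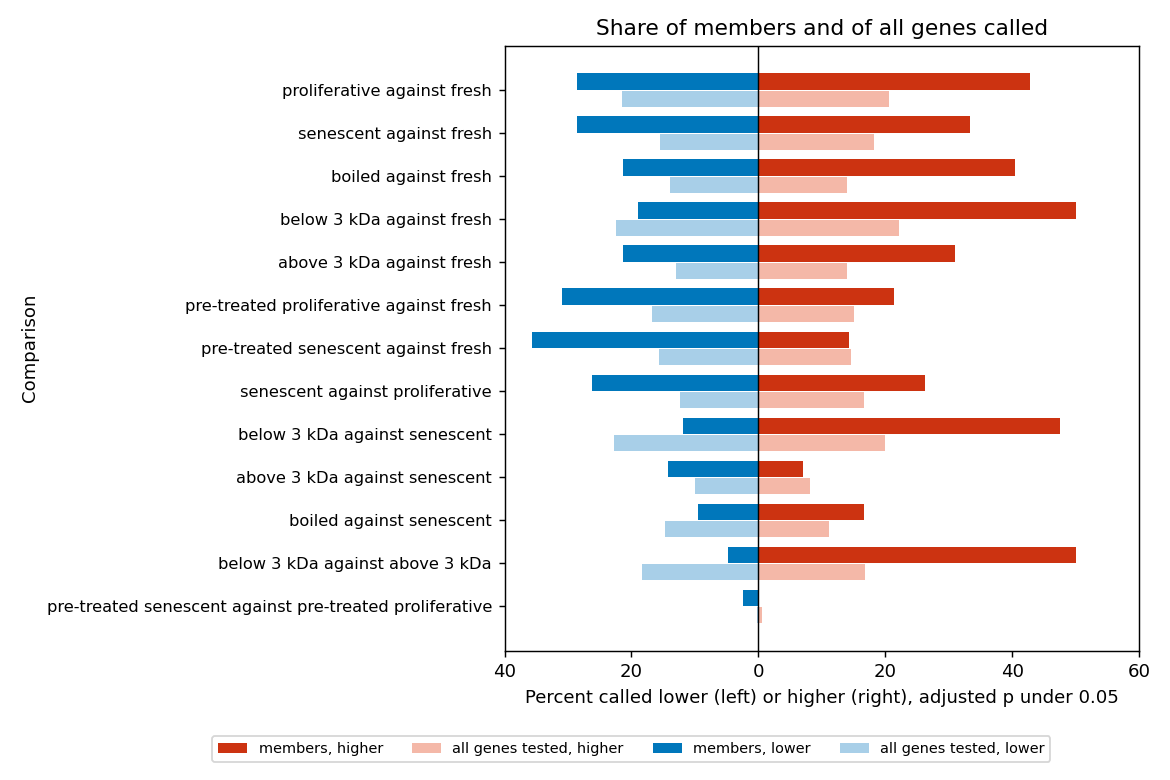
Percent of the 42 members (dark bars) and of all 19210 genes tested (pale bars) called higher (right) or lower (left) in each of 13 comparisons, at an adjusted p under 0.05 in edgeR. The 3 comparisons of the part below 3 kDa have the longest bars for higher members, and the comparison of the pre-treatments is nearly empty.

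The pre-treated cells were compared with fresh medium and with each other. Against fresh medium, pre-treatment with proliferative medium raised 9 and lowered 13 members (all genes: 15.1% and 16.7%), or 12 and 10 with upper quartiles (3380 and 2673 of all genes). Pre-treatment with senescent medium raised 6 and lowered 15 (all genes: 14.6% and 15.6%). The median log2 fold change was -0.02 and -0.10. TFEB (0.69 ± 0.14, adjusted p = 0.00014, and 0.43 ± 0.14, 0.0177) and ULK1 (0.50 ± 0.05, 6.89e-11, and 0.52 ± 0.05, 2.23e-11) rose in both. ULK1 was at 23.1, 20.7 and 22.7 FPKM after proliferative and at 22.3, 22.3 and 22.9 after senescent pre-treatment, against 15.2, 16 and 15.7 in fresh medium, without overlap. CTSB rose by 0.31 ± 0.04 after proliferative pre-treatment (1.83e-09), and GPNMB by 0.63 ± 0.22 after senescent pre-treatment (0.0275), where its libraries, at 0.462, 0.837 and 0.601 FPKM, overlapped fresh medium. That call was lost without replicate 1 or 3 of fresh medium or replicate 2 of the pre-treated group (0.37 to 0.67, 0.0502 to 0.275) and with limma on log2(FPKM + 0.1) (0.50, 0.0695). The fallers were led by CTSZ (-0.46 ± 0.07, 7.36e-06, and -0.56 ± 0.07, 5.75e-07) and PPT1 (-0.41 ± 0.04, 3.95e-10, and -0.44 ± 0.04, 6.91e-11), with MAP1LC3B (-0.43 ± 0.05, 2.14e-08) after proliferative and CTSA (-0.39 ± 0.05, 1.24e-07) after senescent pre-treatment. TFE3 fell after proliferative pre-treatment (-0.19 ± 0.06, 0.019), with overlap, and the call was lost without replicate 1 or 2 of fresh medium or replicate 2 or 3 of the pre-treated group (-0.17 to -0.14, 0.0743 to 0.153) or with upper quartiles (-0.15, 0.0549).

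Few differences between the pre-treatments passed the test. In senescent against proliferative pre-treatment, SQSTM1 was the only member called (-0.16 ± 0.04, adjusted p = 0.0102), at 52.3, 53.7 and 54.1 FPKM against 58.6, 59.8 and 61.5, and it was not called with the GC and length correction, without replicate 3 of the proliferative pre-treatment (-0.15, 0.106) or without replicate 1 of the senescent one (-0.15, 0.0799). Of all genes 0.625% were higher and 0.265% lower, and at an unadjusted p under 0.05 1 member was higher and 8 were lower. By a test of the difference itself, the effect of senescent against proliferative medium was more positive after pre-treatment than in cells kept in the medium for 7 members and more negative for 10 (all genes: 5.58% and 8.19%). GLA (-0.67), MCOLN1 (-0.43), CTSZ (-0.37) and ATP6V0D1 (-0.37) led the negative and GPNMB (0.91), ULK1 (0.41) and FLCN (0.33) the positive differences. Other fits gave other splits, namely 7 and 7 with library totals (1608 and 976 of all genes) and 7 and 8 with upper quartiles (1451 and 1092). The split was 4 and 10 with limma on log2(FPKM + 0.1) (944 and 1480 of all genes). It was 6 and 14 with a replicate block and the GC and length correction (1126 and 2188 of all genes).

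**Figure D5:**
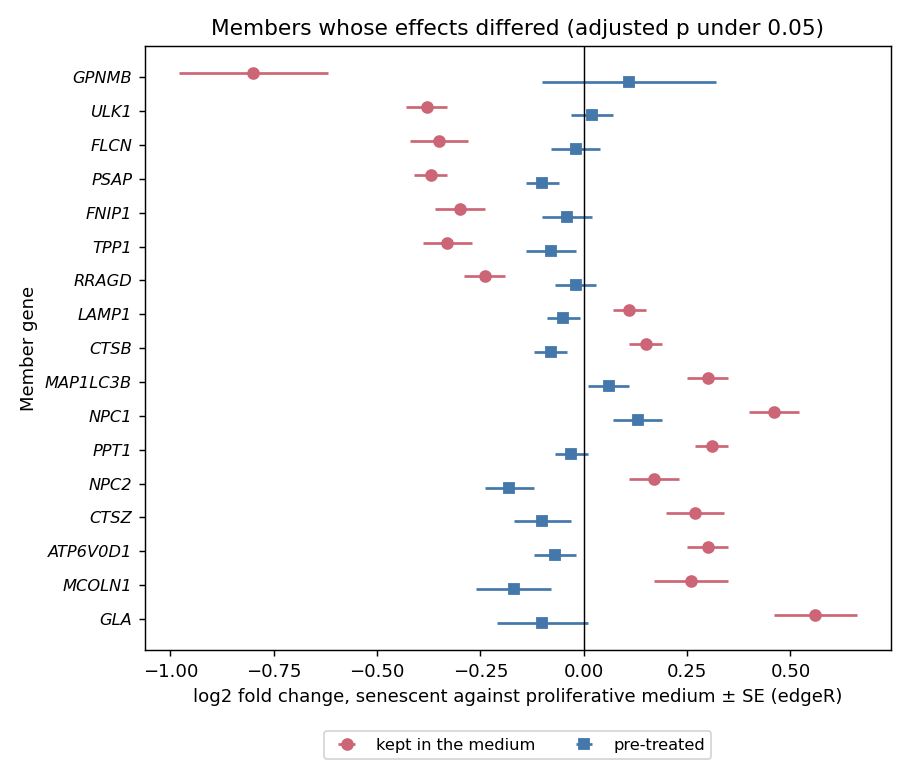
Log2 fold change ± SE of senescent against proliferative medium (horizontal axis, edgeR) for the 17 members whose effect differed between cells kept in the medium (circles) and pre-treated cells (squares). The circles spread from -0.80 for GPNMB to 0.56 for GLA, while the squares stay between -0.18 and 0.13.

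Further genes of the pathway were read from lists of other lysosomal, proton pump, autophagy and nutrient sensing genes. Of 53 other lysosomal genes tested, 27 rose and 11 fell in the part below 3 kDa against fresh medium, 28 rose and 5 fell against senescent medium, and 27 rose and 2 fell against the part above 3 kDa, with medians of 0.20, 0.22 and 0.19 (all genes: 0.01, 0.03 and 0.01). ACP5, an acid phosphatase, rose by 1.49, 0.81 and 0.73, TPCN1, a lysosomal ion channel, by 0.93 over senescent medium and 0.84 over the part above 3 kDa, CTSO by 0.97 over senescent medium, MANBA by 0.98 and CTSF by 0.83 over fresh medium, and CTSH by 0.78 over the part above 3 kDa. CTSV (-0.74, -0.95 and -0.64) was lowest in all 3, and GALNS also fell against the part above 3 kDa (-0.40). Of 15 other proton pump subunits, 4 rose and 2 fell against fresh medium, 1 rose (TCIRG1, 0.29) and 5 fell (led by ATP6V0B, -0.47) against senescent medium, and 2 rose and 1 fell against the part above 3 kDa. Their medians were -0.01, -0.12 and 0.02. Of all genes 22.1%, 19.9% and 16.8% rose and 22.5%, 22.7% and 18.3% fell, so the pump counts are not read as a result about that list.

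Of 42 other autophagy genes tested, 13 rose and 5 fell against fresh medium, 12 rose and 8 fell against senescent medium, and 8 rose and 6 fell against the part above 3 kDa, with medians of 0.01, 0.01 and 0.03. The medians of all genes were 0.01, 0.03 and 0.01, and of all genes 22.1%, 19.9% and 16.8% rose and 22.5%, 22.7% and 18.3% fell. OPTN, a cargo receptor, rose over fresh medium (0.63), NBR1, another receptor, over the part above 3 kDa (0.37), and the protease ATG4B over senescent medium (0.39) and the part above 3 kDa (0.41). ATG5 fell in all 3 (-0.31, -0.47 and -0.26) and WDR45B against senescent medium (-0.57) and the part above 3 kDa (-0.58). Of 32 nutrient sensing genes, 7 rose and 10 fell, 9 rose and 8 fell, and 4 rose and 6 fell, with medians of -0.04, -0.05 and 0.04, so these counts are not read as a result about the list. DEPTOR, an inhibitor of mTOR, rose most in each (1.16, 0.90 and 1.08), SESN3 rose by 0.36, 0.75 and 0.57, and SEH1L fell most (-0.73, -0.76 and -0.56).

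Members with and without CACGTG in the promoter window were counted side by side, with no test of the difference. In the part below 3 kDa against senescent medium, 5 of 10 members with the letters rose and the others did not pass, at a median of 0.09, and 10 of 23 without them rose and 5 fell, at a median of 0.21. Against fresh medium 3 of 10 rose and 2 fell with the letters (median -0.07) and 12 of 23 rose and 5 fell without them (median 0.32). Of all genes 19.9% rose and 22.7% fell against senescent medium, and 22.1% and 22.5% against fresh medium. NEU1, GAA and CTSD, printed above, rose in all 3 comparisons (CTSD not over the part above 3 kDa without replicate 1 of the part below 3 kDa, 0.32), and LAMP1, with the most matches, passed over senescent medium alone of the 3 (0.13), and there not without replicate 1 or 2 of senescent medium (0.10) or with the GC and length correction (0.07, 0.203). That correction called it lower than fresh medium (-0.14, 0.00645), and library totals or upper quartiles called it higher than the part above 3 kDa (0.15 with each, 0.0022 and 0.00326). GPNMB, with the TCATGTG letters, rose by 3.12, 2.09 and 2.51 in the 3 comparisons, and MAP1LC3C, whose window holds neither CACGTG nor TCATGTG, by 3.49, 2.47 and 2.39. These are descriptions of letters in a window, and nothing on the binding of a factor was measured.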

How the data were processed

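RNA-seq libraries of OVCAR8 cells (8 medium groups of 3 libraries) were analysed from 1 deposited table. Per the file headers the authors deposited a raw read count and an FPKM value per gene and library. Per the labels' protocols RNA was extracted with Trizol and columns with DNase, polyA-selected and made into libraries with NEBNext Ultra kits. The submitters' processing notes name STAR 2.6.1, DESeq2 2 and GRCh38, with no role given. For the counter, its use of strand and the annotation, no name was given in the sources used here, and reads shared by overlapping genes (19 members share exon bases with another gene in GENCODE 29) or near-identical copies may be split in an unknown way. The deposited FPKM values matched counts divided by gene length and an effective library size that was 0.965 to 1.04 times the total count. They served for levels, while the counts served for every test.

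Counts were tested with edgeR 4.0.16 (R 4.3.3): filterByExpr by group, TMM factors (0.957 to 1.03), 1 mean per group over all 24 libraries and the robust quasi-likelihood F test, two-sided, with Benjamini-Hochberg adjustment over 19210 genes at 0.05. Standard errors were approximated by dividing the size of each log2 fold change by the root of its F value. The groups gave 16 residual degrees of freedom, with a common biological coefficient of variation of 0.0638. Total counts of 14718120 to 21956598 per library limit the precision, together with the spread between libraries. The scarcest members were GPNMB (35 to 400 reads per library) and MAP1LC3C (19 to 384). No pair of libraries of a group agreed within sampling noise (lowest chi-square per gene 1.64, between replicates 1 and 2 of senescent medium). The highest value, 8.67, was between replicates 1 and 3 of the part below 3 kDa. Replicate 3 of senescent medium gave 6.18 and 6.16 against replicates 1 and 2.

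Alternatives were median-ratio factors, library totals, upper quartiles, no filter, a mean of at least 1 FPKM in a group, a block for the replicate number, a correction for GC content and gene length, both together, a fit to only the groups compared, limma 3.58.1 on log2(FPKM + 0.1) and log2(FPKM + 1), DESeq2 1.42.0, and each library left out in turn. The scripts were tested on simulated data. Any of the 42 members could be named. Values in every library were given for TFEB, TFE3, MITF, GPNMB and SQSTM1 and for the up to 4 members each way with the largest called change in each comparison of the part below 3 kDa, and up to 3 members each way were named with fold change, SE and adjusted p elsewhere, in all cases with a mean of at least 1 FPKM in a group. The same rule gave up to 3 genes each way of each further list, not all of which are reported here. Other genes were named after their values were seen. The members, roles and lists were chosen with earlier results of these data known. Promoter windows came from RefSeq (GRCh38.p14).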

Additional observations from a re-analysis of the deposited data

Results flagged for a closer look

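The effect of senescent against proliferative medium was compared between pre-treated cells and cells kept in the medium by a contrast of both effects in the same edgeR fit, over 4 groups of 3 libraries. The difference of the effects passed an adjusted p of 0.05 for 17 of the 42 members, 7 more positive and 10 more negative (all genes: 5.58% and 8.19%). The 17 are listed because the difference itself was tested, and the split depended on the fit, as given above. None of the 17 was called between the pre-treatments themselves, where SQSTM1 was the only member called. Values below are the pre-treated minus the direct log2 fold change.

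Among the hydrolases and their cofactors, GLA (-0.67 ± 0.15 SE, adjusted p = 0.00143), CTSZ (-0.37 ± 0.10, 0.0113), PPT1 (-0.34 ± 0.06, 0.000115) and CTSB (-0.23 ± 0.05, 0.00128) were higher in senescent than in proliferative medium when applied directly, and their pre-treated effects were near 0 or negative. PSAP (0.26 ± 0.05, 0.000374) and TPP1 (0.25 ± 0.08, 0.0316) were lower in senescent medium directly (-0.37 ± 0.04 and -0.33 ± 0.06), with effects closer to 0 after pre-treatment (-0.10 ± 0.04 and -0.08 ± 0.06).

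Of the membrane and lipid transfer proteins, NPC1 (-0.33 ± 0.09, 0.00705), NPC2 (-0.35 ± 0.09, 0.00459), MCOLN1 (-0.43 ± 0.13, 0.0193) and LAMP1 (-0.16 ± 0.06, 0.041) differed in the same direction. NPC1 kept a positive effect after pre-treatment (0.13 ± 0.06, against 0.46 ± 0.06 directly), whereas NPC2 went from 0.17 ± 0.06 to -0.18 ± 0.06. ATP6V0D1 of the proton pump (-0.37 ± 0.07, 0.00024) and MAP1LC3B (-0.24 ± 0.08, 0.0302) were also more negative.

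GPNMB (0.91 ± 0.28, 0.022) and ULK1 (0.41 ± 0.07, 5.56e-05) were lower in senescent medium directly (-0.80 ± 0.18 and -0.38 ± 0.05) and close to 0 after pre-treatment (0.11 ± 0.21 and 0.02 ± 0.05). The same held for the nutrient switch genes FLCN (0.33 ± 0.09, 0.00932), FNIP1 (0.25 ± 0.09, 0.0486) and RRAGD (0.22 ± 0.07, 0.0346). When each of the 12 libraries was left out in turn, 10 of the 17 kept their call in all 12 fits. MCOLN1 kept it in 9 and lost it without replicate 3 of the senescent pre-treatment or replicate 1 or 2 of proliferative medium (-0.40 to -0.37). GPNMB kept it in 8 and lost it without replicate 2 of either pre-treatment or replicate 1 of proliferative or senescent medium (0.66 to 0.87). The others lost it in more fits, without libraries of all 4 groups, with values of 0.20 to 0.25 for TPP1 (kept in 6), -0.23 to -0.21 for MAP1LC3B (5), -0.18 to -0.12 for LAMP1 (4), 0.19 to 0.22 for RRAGD (4) and 0.20 to 0.28 for FNIP1 (2). Other fits also ended calls: library totals for MCOLN1 (-0.36, adjusted p = 0.0544), LAMP1 (-0.10, 0.289) and MAP1LC3B (-0.17, 0.145), upper quartiles for LAMP1 (-0.11, 0.21) and MAP1LC3B (-0.19, 0.11), limma on log2(FPKM + 0.1) for GPNMB (0.79, 0.0749), FNIP1 (0.25, 0.0723) and TPP1 (0.25, 0.0584), and the replicate block for FNIP1 (0.25, 0.057). FLCN lost its call with the replicate block and the GC and length correction together (0.23, 0.0501).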

How the results depend on the processing

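A set of 93 called fold changes was followed through the alternatives. It held the largest ones each way in each comparison and those of TFEB, TFE3, MITF, GPNMB and SQSTM1. Smaller calls named above, such as CTSD against senescent medium or WIPI1, were not in it, and several of them lost their calls. Of the 93, 75 kept their direction and their side of the threshold under every alternative run. Over 1710 recomputed values 1635 did so, 73 kept the direction but lost the call, and 2 turned: SQSTM1 in proliferative against fresh medium (0.14) went to -0.03 with the GC and length correction, alone and with the replicate block. The number of members called in senescent against proliferative pre-treatment (1) was 0 with the GC and length correction, with that and the block, and with only the groups compared, and 0 to 2 without 1 library. The number of all genes called there (171) was 331, 333 and 35 under these fits and 99 to 149 without 1 library. Without 1 library, 5 to 9 members (9 with all) were called in the part above 3 kDa against senescent medium, and 11 to 17 (17 with all) for the difference between pre-treated and direct effects. The causes were not tested, except that a fit without a library holds fewer samples. The median of all genes moved from 0.03 to 0.11 with library totals or upper quartiles in the part below 3 kDa against senescent medium, and from -0.01 to -0.09 with library totals in senescent against proliferative medium. In the first, 5096 genes were higher and 3256 lower by totals.

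Equal replicate numbers gave no general sign of pairing. Over 84 pairs of libraries with the same number the median correlation of deviations from group means was -0.0046 (-0.175 to 0.399), against -0.002 for other numbers. Of these pairs, 6 passed 0.1. By mean correlation, 7 of 24 libraries were closest to the libraries of their own number in other groups. With the replicate block as a term, 4 member calls were lost, namely LAMP2 in boiled against fresh medium (adjusted p = 0.0545), UVRAG in proliferative pre-treatment against fresh medium (0.051), CTSD in the part below 3 kDa against senescent medium (0.0518) and FNIP1 in the difference of effects (0.057). CD63 gained 2, in senescent against fresh (0.0467) and boiled against senescent medium (0.0487). Depth limits GPNMB and MAP1LC3C most, with as few as 35 and 19 reads in a library.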
